A study of Mus musculus with 2 samples.

Results

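The Hox genes studied here were the members of the 4 Hox clusters of the mouse, taken as every probe set whose annotation held a single symbol made of Hox, a cluster letter from a to d and a paralogue number. Members were chosen by symbol alone, and the rule found 48 probe sets of 33 genes among 45101 probe sets of the arrays and 18193 genes named by them. The wildtype group held 1 array of total RNA from whole lungs of normal embryos at embryonic day 18. The other group held 1 array of the same tissue and age from homozygotes for nmyc9a, which the labels call a hypomorphic allele, so that Mycn function is reduced and not lost. Each array held RNA of pooled lungs, and the labels of both groups name no strain, sex, pool size, transgene or treatment. With 1 array per group, no difference has a replicate check, no p-value is given, and the number of arrays limits the precision. In whole-lung RNA, fewer cells of a type and less RNA per cell cannot be told apart.

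Hox genes encode homeodomain transcription factors that give the tissues along the head-to-tail axis their regional identity. Within a cluster they lie in the order in which they are used: genes of low paralogue number are switched on first and reach far forward, and genes of high number act in the tail, limbs, urogenital tract and hindgut. Genes with the same number in different clusters are paralogues and often share tasks. In the lung, Hoxa5 is active in mesenchyme and is needed for normal growth of the trachea and lung, and Hoxb5 takes part in airway branching. Hox proteins bind DNA with partners of the Pbx, Meis and Pknox families, retinoic acid signalling switches on many low-numbered Hox genes, and Polycomb and Trithorax proteins keep clusters silent or active. The comparison asks which of these genes late fetal lung contains as RNA, and which of them differ in lungs with reduced Mycn function.

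Promoter sequences are shown for 4 genes because the arrays treated them differently and because Myc proteins bind E-boxes, so that a reader can see the letters in question. Hoxa3, Hoxa5 and Hoxb4 had signal on both arrays, as given below, and Hoxd10 had signal on neither. Each is the 250 bases before the gene's start in RefSeq, build GRCm38.p6, on the strand of the gene, and capitals mark every E-box of the form CANNTG. The windows are chr6:52213068-52213317 on the minus strand for Hoxa3, chr6:52204588-52204837 on the minus strand for Hoxa5, chr11:96318017-96318266 on the plus strand for Hoxb4 and chr2:74691641-74691890 on the plus strand for Hoxd10.
Hoxa3: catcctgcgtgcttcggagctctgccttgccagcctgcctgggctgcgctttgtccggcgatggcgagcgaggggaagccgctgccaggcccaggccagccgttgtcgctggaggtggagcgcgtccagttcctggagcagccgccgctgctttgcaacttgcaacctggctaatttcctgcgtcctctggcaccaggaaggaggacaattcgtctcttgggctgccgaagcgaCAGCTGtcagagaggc
Hoxa5: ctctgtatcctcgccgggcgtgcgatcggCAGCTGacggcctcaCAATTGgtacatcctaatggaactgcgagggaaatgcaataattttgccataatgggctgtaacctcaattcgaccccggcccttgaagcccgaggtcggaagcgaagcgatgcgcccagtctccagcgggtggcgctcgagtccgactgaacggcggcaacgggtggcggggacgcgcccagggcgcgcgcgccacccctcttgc
Hoxb4: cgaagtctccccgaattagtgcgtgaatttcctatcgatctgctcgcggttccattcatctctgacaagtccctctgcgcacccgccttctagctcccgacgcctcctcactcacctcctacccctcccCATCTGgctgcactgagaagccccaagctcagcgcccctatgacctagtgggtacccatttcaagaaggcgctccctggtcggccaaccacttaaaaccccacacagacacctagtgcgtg
Hoxd10: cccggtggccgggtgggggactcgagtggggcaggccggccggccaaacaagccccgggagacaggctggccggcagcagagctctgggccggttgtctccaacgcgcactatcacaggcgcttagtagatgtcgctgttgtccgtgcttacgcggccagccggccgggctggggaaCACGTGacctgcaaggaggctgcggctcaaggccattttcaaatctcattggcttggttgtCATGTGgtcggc

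These windows of Hoxa3, Hoxa5 and Hoxb4 held 1, 2 and 1 E-boxes, none of them with the letters CACGTG that Myc and Max prefer. The Hoxd10 window held 2, of which 1 read CACGTG. RefSeq gave 24 promoters for 22 Hox genes, each 300 bases long with 250 before and 50 after the start. It gave none for Hoxb2, Hoxb3, Hoxb5, Hoxb6, Hoxb7 and Hoxc6. These genes had signal on both arrays, so most genes of that class were not searched. CACGTG, which reads the same on both strands, was in 5 of the 24 Hox promoters (20.8%) and in 7.15% of all 32851 promoters of that length. All 5 belonged to the Hoxd cluster, namely Hoxd1, Hoxd4, Hoxd10, Hoxd11 and Hoxd13. Among these, Hoxd1, Hoxd10 and Hoxd11 lay below the signal floor on both arrays, Hoxd13 lay above it on the wildtype array alone, and Hoxd4 had no probe set of its own. The broader CANNTG, which contains CACGTG, was in 17 of 24 Hox promoters (70.8%) and in 72.3% of all. The Pbx-Hox site TGATNNAT, searched on both strands, was in 4 of 24 (16.7%) against 8.85% of all, and AGGTCA, the letters nuclear receptors bind, on either strand in 7 of 24 (29.2%) against 16.3%. The letters CCAAT, on either strand, were in 15 of 24 (62.5%) against 37.4%. Hox promoters were rich in CpG pairs, with a median of 14.5 per window against 7 over all promoters. The letters CACGTG hold a CpG pair themselves, so their share over all promoters is not a like-for-like baseline. The median count was 14 for 5 promoters of genes above the floor on both arrays and 20 for 12 promoters of genes below it on both. The median observed over expected CpG ratio was 0.59 in the former and 0.67 in the latter. Whether CpG content followed signal was not tested on so few promoters. Such matches and counts describe the letters in these windows only.

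Signals below are linear intensities, given for the wildtype array first and then for the array labelled Nmyc9a, after the latter was multiplied by 0.977 to bring the median log2 ratio of probe sets above the floor to 0. The floor is the 40th percentile of all signals, 49.3, and a gene is represented by its brightest probe set. A gene is called measured where the mean of both arrays reached the floor. A low signal shows that this probe set saw little RNA, not that the gene is silent. A signal at or above the floor is likewise no detection call, because the floor is only a percentile of all signals. The pooled SD of the log2 ratio between probe sets of the same gene, over 5671 genes, was 0.40, which is 1.32-fold. It is the only spread available here. It measures how far probe sets disagree on the same 2 arrays, not variation between pools, animals or arrays. Mycn itself was not lower: its brightest probe set read 66.3 and 84.8, and a second 51.1 and 85.4, log2 ratios of 0.36 and 0.74, so its signal went against a reduced level if these probes see the altered RNA. Where they lie relative to the allele is not known here, and every direction below rests on the label. The tissue label fitted its markers. All 16 lung epithelial markers were above the floor on both arrays, among them Sftpc at 8639 and 8966, as were all 18 of lung mesenchyme, with Tcf21 at 4181 and 4030.

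In late fetal lung, signal at or above the floor came mostly from the low-numbered part of the Hoxa and Hoxb clusters, with Hoxc6 and few others. Of the 33 Hox genes, 13 (39.4%) were measured, against 69.3% of all genes. By array, 14 reached the floor in wildtype lungs and 13 on the array labelled Nmyc9a, 11 of them on both. These 11 were Hoxa2, Hoxa3, Hoxa5, Hoxa9, Hoxb2, Hoxb3, Hoxb4, Hoxb5, Hoxb6, Hoxb7 and Hoxc6. Hoxa4, Hoxd8 and Hoxd13 reached it on the wildtype array alone, Hoxa11 and Hoxc4 on the array labelled Nmyc9a alone, and 17 genes on neither. The count depends on where the floor is put: 24 genes were measured with a floor of 17.7 (the 20th percentile) and 8 with a floor of 101 (the 60th). The 8 were Hoxa3, Hoxa5, Hoxa9, Hoxb2, Hoxb3, Hoxb4, Hoxb5 and Hoxc6.

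**Figure D1:**
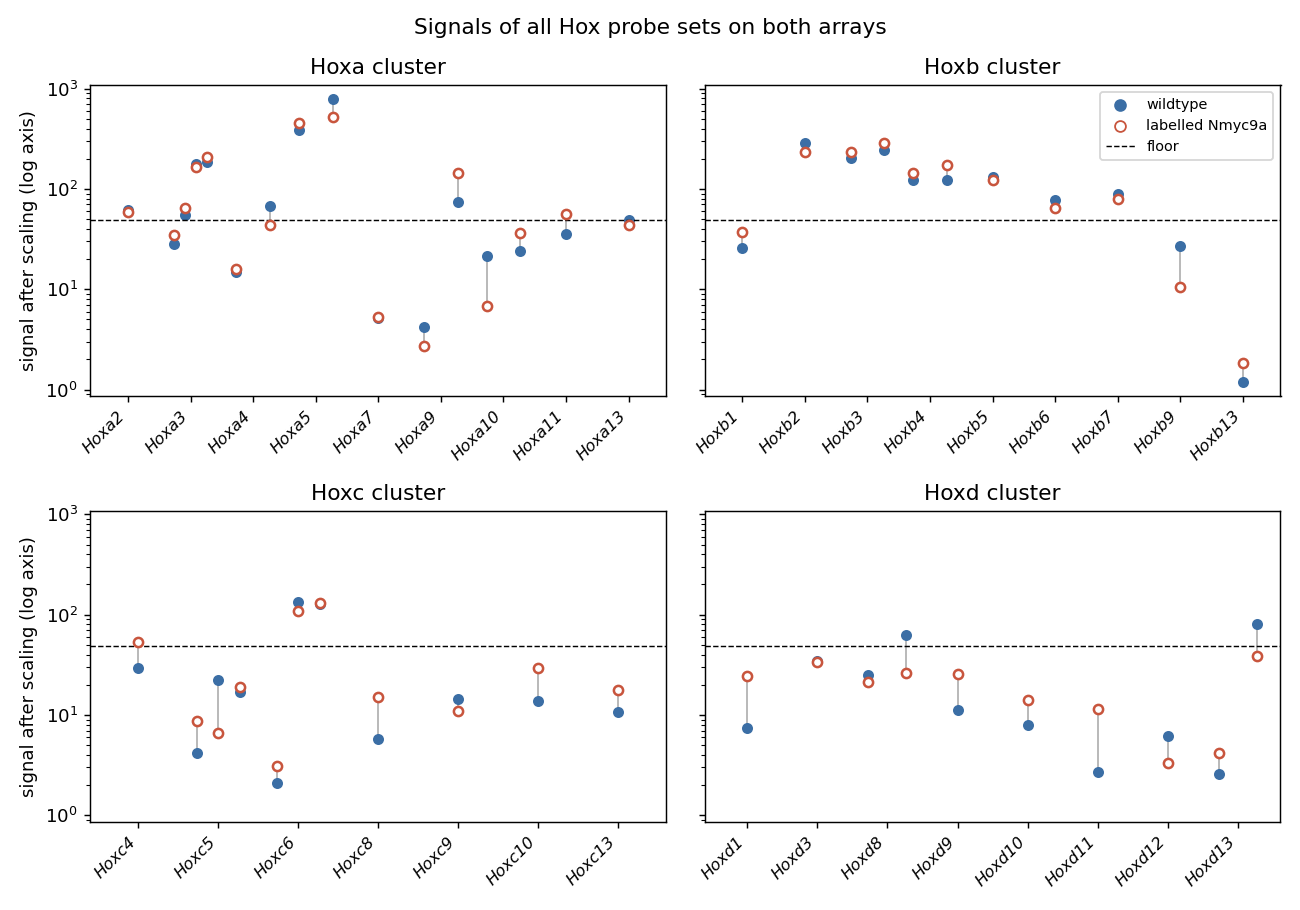
Signal of each of the 48 Hox probe sets after scaling, on a log axis, by gene and cluster; filled points are the wildtype array, open points the array labelled Nmyc9a, a grey line joins the same probe set, and the dashed line is the floor of 49.3. Hoxb2 to Hoxb7 lie above the floor on both arrays, and the Hoxd cluster lies at or below it but for 1 wildtype reading each of Hoxd8 and Hoxd13.

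Genes with signal were unevenly spread over positions and clusters. In the Hoxa and Hoxb clusters, 10 of 11 genes at positions 2 to 7 were measured, and 1 of 6 at positions 9 to 13. In the Hoxc and Hoxd clusters, 1 of 4 genes at positions 2 to 7 was measured and 1 of 8 at positions 9 to 13. By cluster the counts were 5 of 9 for Hoxa, 6 of 9 for Hoxb, 1 of 7 for Hoxc and 1 of 8 for Hoxd. By paralogue number, both genes on the arrays at position 2 and both at position 6 were measured, and none of those at positions 1, 8, 10, 11 or 12. No test was run on these counts, which describe 1 array per group.

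**Figure D2:**
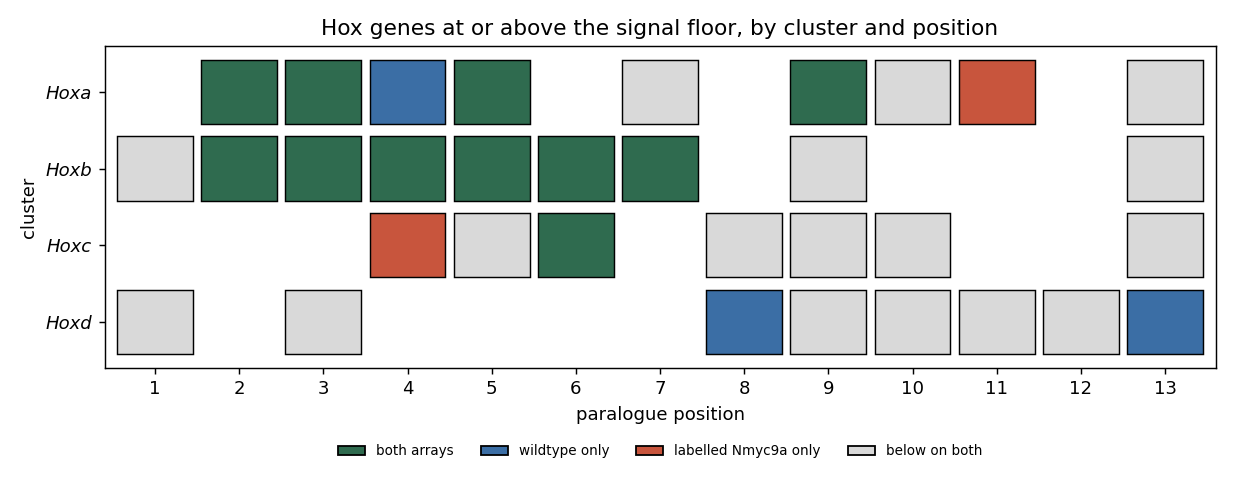
Map of the 4 clusters by paralogue position, each box 1 gene, coloured by the arrays on which its brightest probe set reached the floor; gaps are positions at which no gene was analysed here. The 11 genes above the floor on both arrays form a run in Hoxb from position 2 to 7, a shorter and broken run in Hoxa, and a single gene in Hoxc.

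In the Hoxa cluster, Hoxa5 was the gene with readings far above the floor in both probe sets, and they disagreed on direction. Hoxa5, the lung and trachea regulator, read 787 and 522 by its brightest probe set, a log2 ratio of -0.59 or 1.51-fold lower on the array labelled Nmyc9a. Its other probe set, an _x_at type that can share probes with related transcripts, read 390 and 455, a log2 ratio of 0.22. The gap of 0.81 between them was 2.02 times the SD between probe sets of a gene. The Hoxa5 ratio also lay at the edge of the 1.5-fold size used here. It was -0.56 in the signals as deposited, -0.43 after quantile normalization, -0.41 after loess and -0.19 by the median of its probe sets, each short of 1.5-fold. Both probe sets place Hoxa5 RNA in lungs of either group, and they do not settle which group has more.

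Hoxa2 and Hoxa3, which pattern the hindbrain and the pharyngeal arches, also had signal above the floor on both arrays. Hoxa2 read 62.3 and 59, close to the floor, with a log2 ratio of -0.08. Hoxa3 had 4 probe sets, of which 3 were measured. The brightest read 185 and 208, the next 178 and 164 and another 55.5 and 63.9, with log2 ratios of 0.17, -0.12 and 0.20, while the last read 28.4 and 34.4. The measured Hoxa3 readings thus lay on either side of 0 and within 1 SD of each other. Hoxa4 read 67.1 and 43.3, so its ratio is a bound of -0.44 or lower, and its _x_at probe set read 14.8 and 16. Without a floor the Hoxa4 ratio was -0.63, past 1.5-fold, and after loess it was -0.59.

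The high-numbered end of the cluster was near or below the floor except for Hoxa9. Hoxa9, which acts in blood progenitors, kidney and the reproductive tract, read 74 and 143, a log2 ratio of 0.95 or 1.93-fold higher on the array labelled Nmyc9a. Its other probe set read 4.2 and 2.7, far below the floor on both arrays, so the difference rests on 1 probe set. With the floor at the 60th percentile the Hoxa9 ratio was 0.50 or higher. Some markers of other tissues were also higher on the array labelled Nmyc9a. Of 6 measured liver markers 4 were at least 1.5-fold higher and none lower. Among 4 measured skeletal muscle markers 2 were higher and none lower. The shares over all measured genes were 6.33% higher and 9.7% lower. Hpx, Apoa1, Ttr and Acta1 reached the floor on the array labelled Nmyc9a alone. The filter on mean signal let them in through that array, so these liver and muscle counts lean upwards. The summed signal of the 9 liver markers present on the array was 406 and 1243, and that of the 11 muscle markers 455 and 1005. In wildtype lungs 3 liver and 3 muscle markers reached the floor, against 6 and 7 on the array labelled Nmyc9a. The median log2 ratio was -0.33 for cartilage markers, -0.35 for nerve and 0.31 for thymus. Of 9 measured markers of blood progenitors and red cells, Kit at 411 and 639 was 1.5-fold or more higher and Trim10 and Slc4a1 were lower, with summed signals of 2067 and 1998 over all 11. None of these markers read 0 on either array, and their part in the Hoxa9 reading was not tested.

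Hoxa11, a gene of limb, kidney and uterus, read 35.3 and 55.9, above the floor on the array labelled Nmyc9a alone, so its log2 ratio is 0.18 or higher. Hoxa13, of the limb tip and hindgut, read 49.1 and 43.8, just under the floor on both arrays. Hoxa10 read 24.3 and 36.6 in one probe set and 21.3 and 6.8 in the other. Hoxa7, the one gene with a probe set between Hoxa5 and Hoxa9, read 5.2 and 5.3. The run of Hoxa genes with signal on both arrays is thus broken at Hoxa4 and at Hoxa7.

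The Hoxb cluster had signal on both arrays at every position from 2 to 7, and none of these 6 genes reached 1.5-fold either way. Hoxb2 read 286 and 234 and Hoxb5, the branching regulator, read 132 and 123, with log2 ratios of -0.29 and -0.10. Hoxb6 read 77.7 and 64.1, a log2 ratio of -0.28, and Hoxb7 read 88.6 and 79.2, a log2 ratio of -0.16. These 4 genes were slightly lower on the array labelled Nmyc9a, by less than 1 SD between probe sets of a gene. Hoxb3 read 246 and 287 in one probe set and 204 and 233 in the other, with log2 ratios of 0.22 and 0.19 that lay 0.03 apart. Hoxb4, known for its part in blood stem cells, read 123 and 174 and, in its second probe set, 123 and 144, with ratios of 0.50 and 0.24. The 4 probe sets of the neighbours Hoxb3 and Hoxb4 were therefore all above 0 in the scaling used here. The sign held for the brightest probe set of each of these 6 Hoxb genes in every alternative that measured it. Outside this run, Hoxb1 read 25.7 and 37.6, Hoxb9 27 and 10.7, 1.5-fold lower if the floor is set at the 20th percentile, and Hoxb13, of the tail end and prostate, 1.2 and 1.9. Hoxb5os, the noncoding RNA that overlaps the cluster at Hoxb5 and Hoxb6, read 107 and 108 and is not counted among the members.

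Hoxc6 was the 1 gene of its cluster above the floor on both arrays. Its probe sets read 126 and 132, and 133 and 109, with log2 ratios of 0.06 and -0.29. The remaining probe set of Hoxc6 read 2.1 and 3.1. The brightest Hoxc6 ratio was slightly below 0 after quantile normalization, at -0.05, so no direction can be given. Hoxc4 read 29.6 and 53.7, a log2 ratio of 0.12 or higher. All 3 probe sets of Hoxc5, the neighbour between them and a paralogue of Hoxa5 and Hoxb5, were below the floor, its brightest at 16.9 and 19.1. The remaining genes Hoxc8, Hoxc9, Hoxc10 and Hoxc13 had no reading above 29.3.

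The Hoxd cluster, best known for patterning limbs and the urogenital tract, had no gene above the floor on both arrays. Hoxd13, its last gene, read 81.7 and 38.6 in one probe set, a log2 ratio of -0.73 or lower and so at least 1.66-fold lower, but its other probe set read 2.6 and 4.2. Hoxd8 read 62.3 and 26.4, with a ratio of -0.34 or lower and a mean below the floor, and its second probe set read 24.9 and 21.4. Hoxd1, Hoxd3, Hoxd9, Hoxd10, Hoxd11 and Hoxd12 ranged from 2.7 in Hoxd11 to 34.6 in Hoxd3. Probe sets shared by Hoxd3 and Hoxd4 read at most 9.9, and the one shared by Hoxb7 and Hoxb8 read 45.6 and 17.5, under the floor. Hox genes without a probe set under their own symbol alone were not analysed here.

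Across the measured Hox genes the arrays differed little. Of 13, 1 (Hoxa9) was at least 1.5-fold higher on the array labelled Nmyc9a and 2 (Hoxa5 and Hoxd13) at least 1.5-fold lower. Over all 12600 measured genes, 6.33% were that much higher and 9.7% that much lower. Below a mean signal of 300, where 12 of the 13 lie, the shares were 8.13% and 8.93%. With the floor none reached 2-fold, though the Hoxd13 value is a bound, and without a floor its ratio of -1.08 passed that size, the 1 gene that did. It is a size passed with the floor by 1.29% of measured genes upwards and 1.38% downwards. The median log2 ratio was -0.10 for the measured Hox genes and -0.09 for all measured genes, and 5 Hox genes were above 0 and 8 below. The filter on mean signal lets in a gene such as Hoxd13 through the array where it is bright, so these counts describe the genes that passed and support nothing further. Of the 3 genes past 1.5-fold, Hoxa5 alone had a second measured probe set, which had the opposite sign; those of Hoxa9 and Hoxd13 were below the floor on both arrays and give no second reading.

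**Figure D3:**
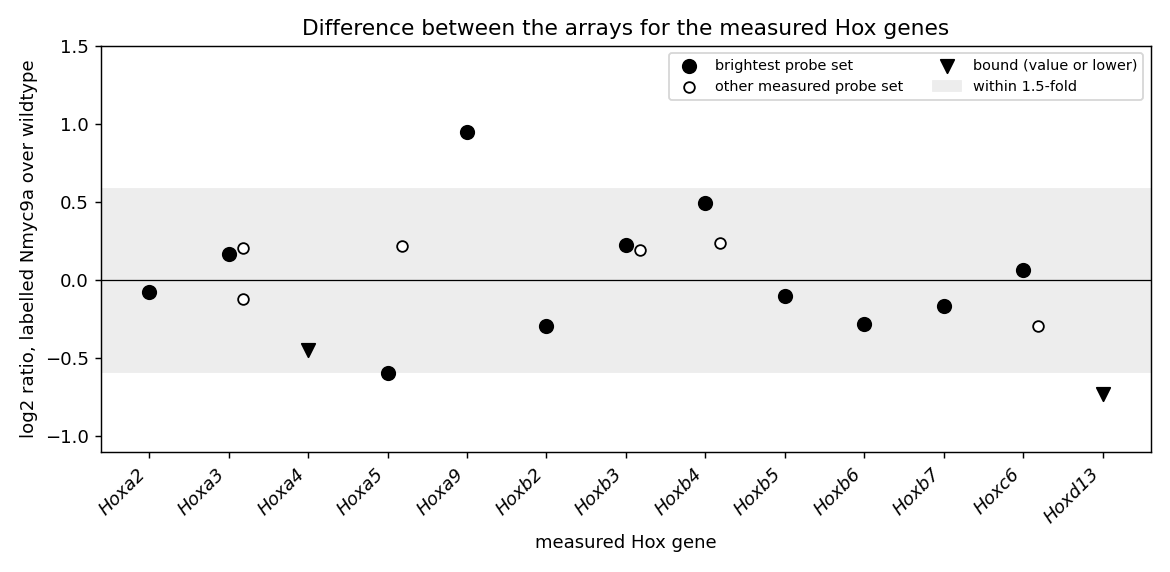
Log2 ratio of the array labelled Nmyc9a over wildtype for the 13 measured Hox genes; filled symbols are the brightest probe set, open circles other measured probe sets, triangles values that are bounds, and the grey band is 1.5-fold either way. Hoxa9 stands above the band at 0.95, Hoxd13 below it at -0.73 or lower, and the Hoxa5 probe sets fall on either side of 0.

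Hox partner genes were present, and their probe sets disagreed on direction. By the brightest probe set, of 7 measured members of the Pbx, Meis and Pknox families none reached 1.5-fold. Meis1 read 276 and 281, Meis2 296 and 247, Pbx2 728 and 650 and Pbx3 423 and 375. The lowest ratio was that of Pknox1, -0.51 from 392 and 275, and the highest was 0.11 for Pknox2. The median was -0.16, but 0.54 by the median of probe sets, where Meis2 (0.62) and Pbx2 (0.64) passed 1.5-fold higher. Without x, s and a probe sets it was 0.11, and Meis1 (0.81) and Meis2 (1.24) passed it. The Meis2 probe set behind that value read 81.7 and 193, the Meis1 probe set 193 and 338.

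Of 20 measured Polycomb genes none reached 1.5-fold by the brightest probe set, with a median of -0.06 that was 0.04 after loess. Other probe set choices put 1 gene past it, Phc3 at 0.68 by the median of probe sets or Rbbp4 (0.88) once x, s and a probe sets were left out. By the brightest probe set they ran from Rnf2, a ubiquitin ligase of the silencing complex, at -0.55 (521 and 355) to its paralogue Ring1 at 0.55 (99 and 145). Ezh2, the methyltransferase that places the silencing mark on histone H3, stood at -0.52 (339 and 237) and Ezh1 at 0.23. Among 10 measured Trithorax genes and demethylases of the same histone mark, 1 was lower, beside 9.7% of all measured genes. This was Dpy30, a subunit of the H3K4 methyltransferase complexes. Dpy30 read 424 and 198, 2.14-fold lower by its only probe set. Kmt2a, the methyltransferase that maintains Hox expression, stood at 0.49 (289 and 406), short of 1.5-fold but past it after loess (0.60), and its second probe set at 0.27. Ash2l passed it by the median of probe sets, at 0.65.

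Of 9 measured caudal and retinoid regulators, 2 were higher and 1 lower, beside 6.33% and 9.7% of all measured genes. Aldh1a2, which makes retinoic acid and is rich in mesothelium, read 355 and 148, 2.40-fold lower. Cyp26b1, which degrades retinoic acid, read 185 and 278, a log2 ratio of 0.59 that just passed 1.5-fold, and Gdf11, a growth factor that shifts Hox boundaries, read 65.8 and 105, 1.59-fold higher. Neither of these kept 1.5-fold after quantile normalization or with the pseudocount, and Gdf11 did not after loess or with the floor at the 60th percentile, while Aldh1a2 was past it in every setting. The receptors Rara, Rarb and Rarg stood at 0.23, 0.43 and -0.26. Of 7 measured mesothelium markers, 3 were 1.5-fold lower, namely Krt19, Lrrn4 and Msln, beside 9.7% of all measured genes. None was that much higher. The other measured markers ran from -0.29 for Upk3b to 0.34 or higher for Muc16. The summed signal of the 8 markers on the array was 3845 and 2185. The part of mesothelium markers in the Aldh1a2 reading was not tested. The caudal genes Cdx1, Cdx2 and Cdx4, activators of Hox genes of the trunk, were below the floor on both arrays.

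**Figure D4:**
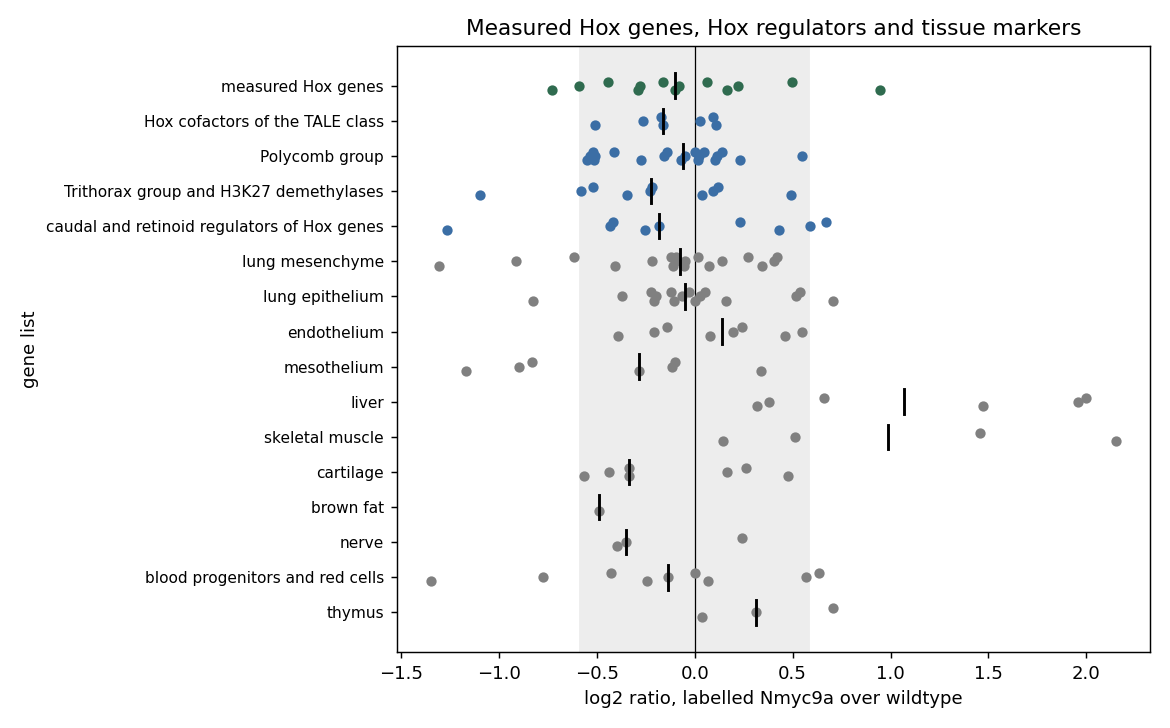
Log2 ratios of the measured genes of each list, the array labelled Nmyc9a over wildtype, 1 point per gene with the median as a black bar and 1.5-fold as a grey band; green is Hox, blue regulators, grey tissue markers, and ratios against a signal below the floor are bounds. By the brightest probe set, Hox genes and their partners centre near 0, and the liver and skeletal muscle lists have medians of 1.07 and 0.98. Those medians lean upwards, because some genes of both lists passed the filter through the array labelled Nmyc9a alone.

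The other marker lists were read for tissues that whole-lung RNA could hold. Of 18 lung mesenchyme markers Vcan, Wnt2 and Dcn were 1.5-fold lower and none higher, with summed signals of 38757 and 39631. In the lung epithelium list Sftpd was lower and Foxj1 higher, of 16. No measured gene of the endothelium, cartilage, brown fat or nerve lists reached 1.5-fold (8, 7, 1 and 3 measured) in the setting used here, where the widest ratios were 0.55 for Flt1, -0.57 for Matn3, -0.49 for Fabp4 and -0.40 for Gap43. After quantile normalization Matn3 and Hapln1 of the cartilage list were 1.5-fold lower, after loess Matn3 alone was, and a floor of 17.7 made Elavl4 of the nerve list lower. Of 3 measured thymus genes Themis was higher, and none was after quantile normalization. Alb and Afp, the liver plasma proteins, read 140 and 558, and 63.9 and 248, and Acta1, skeletal muscle actin, read 41.1 and 219. Whether any of these tissues contributed Hox RNA was not tested.

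Genes beside the clusters were also read. Taking the 3 nearest measured protein-coding genes on each side of each cluster, 24 in all, 2 were 1.5-fold higher and 3 lower, with a median of -0.16. Over all 12600 measured genes, 6.33% were that much higher and 9.7% that much lower, so these few calls say nothing particular about the regions. Beyond the high-numbered end of Hoxb, Ttll6 read 33.4 and 92, at least 1.87-fold higher, and the next gene Atp5g1, a subunit of mitochondrial ATP synthase, read 493 and 276, 1.79-fold lower. Near Hoxa, Cbx3 read 64.6 and 105, 1.63-fold higher. The nearest measured neighbours on the sides of Hoxd, Lnpk and Mtx2, read 81.1 and 52.8 and 520 and 341, 1.54-fold and 1.53-fold lower. Mtx2, next to a cluster with no gene above the floor on both arrays, was thus read well above the floor on both.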

How the data were processed

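The authors deposited 1 linear signal intensity per probe set and array, from biotin-labelled RNA extracted with Trizol and an RNeasy kit, per the labels; software and scaling: not given in the sources used here. Without 64 control probe sets, 45037 remained. Of 34945 with 1 symbol, 34741 were updated through Entrez identifiers to RefSeq (GRCm38.p6), while Hox symbols were kept as annotated. Log2 ratios used the floor in place of any lower signal, which makes such a ratio a bound. No test was possible with 1 array per group, and genes were counted at 1.5-fold. Members and lists were chosen with earlier results of these data known. Every Hox gene that reached the floor is named; from each list, genes past 1.5-fold (at most 6) or else extremes; further genes were named after their values were seen. Scaling was tested on simulated data with 2-fold changes placed in bright genes and with little noise. That test does not cover genes as dim as most Hox genes here. Alternatives were 3 scalings, 2 other floors (20th and 60th percentiles), no floor, a pseudocount of 50, other probe set choices and 2-fold and 3-fold sizes. Python 3.11.15, pandas 2.3.3 and statsmodels 0.14.6 (loess span 0.3) were used.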

Additional observations from a re-analysis of the deposited data

How the results depend on the processing

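With signals as deposited or after quantile normalization, 13 Hox genes were measured, as in the report, and 1 instead of 2 was at least 1.5-fold lower. A floor at the 20th percentile gave 24 measured, 5 higher and 5 lower. In addition to those in the report, Hoxa10, Hoxa11, Hoxc4 and Hoxc10 were higher and Hoxa4, Hoxb9 and Hoxd8 lower. At that floor 10.6% of all 15715 measured genes were that much higher and 11.6% that much lower. A floor at the 60th percentile gave 8 measured Hox genes, 0 higher and 1 lower. There the shares were 3.79% and 9.38% of all 9382 measured genes. A pseudocount left 0 lower. The median of probe sets gave 10 measured Hox genes, without Hoxa4, Hoxa9 and Hoxd13, and left 0 either way, with Hoxa5 at -0.19. At 2-fold and 3-fold, 0 were higher and 0 lower with the floor, where Hoxd13 has only a bound; without a floor it stood at -1.08, past 2-fold. Fewer genes reach a higher floor, and a pseudocount shrinks ratios of dim genes by construction. The median of probe sets averages Hoxa4, Hoxa9 and Hoxd13 each with a second probe set below the floor, so they were no longer measured. For the other settings the cause was not tested. The median log2 ratio ran from -0.28 after quantile normalization to 0.11 with the floor at the 60th percentile. Of 108 values of single genes, 98 kept their side of 1.5-fold, 7 dropped under it, 3 passed it and 0 changed sign among genes past it. A gene no longer measured in an alternative gave no value there and is left out of the 108. This was so for Hoxa9 and Hoxd13 by the median of probe sets, and for Hoxd13 with the floor at the 60th percentile. Over all measured genes, the 1.5-fold counts of 797 higher and 1222 lower became 1659 and 1830 with the low floor, 356 and 880 with the high floor, and 375 and 670 with the pseudocount. No paired analysis was possible because the groups share fewer than 2 replicate numbers, each having 1 array.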
